A study of Mus musculus with 7 samples.

Results

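The genes described are 9 targets of the nuclear receptor PPAR alpha that take part in fat oxidation, Vnn1, Abcd2, Acot1, Acot2, Acot3, Cyp4a10, Cyp4a14, Ehhadh and Pdk4. They were picked by gene symbol, out of 32451 genes on the array, and were measured by 12 of its 39429 probes. PPAR alpha is a receptor for fatty acids and their derivatives that binds DNA as a pair with the retinoid X receptor RXR. In liver it is best known for switching on genes that bring fatty acids into peroxisomes and mitochondria, shorten them there, oxidise them at their far end in the endoplasmic reticulum and turn them into ketone bodies. Its activity is usually high in fasting and in fat feeding, when fatty acids reach the liver in excess.

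Livers came from male mice of a background written as C57/BJ, 26 weeks old. The animals had been fed a high-fat diet (HFD, D12331, n = 3) or a control chow (n = 4) for 20 weeks from an age of 6 weeks. Total liver RNA was labelled with Cy3 and read on 1-colour Agilent arrays, with 1 array per sample, to ask how the diet changes gene expression in liver. The labels do not say which animal each sample came from, so every p-value measures the spread between these samples, which may be technical.

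The deposited data hold a scanner file per array and a table of log2 values for 1615 probes, 1488 genes, with 3 HFD and 4 chow columns. On the scanner arrays, 57.0% to 66.8% of spots were well above background on HFD arrays, with 75th percentiles of the processed signal of 757.9 to 970.6. HFD replicate 1 had a mean negative control signal of 46.9, outside the scanner software's range, against 29.9 and 30.8 on the other 2 HFD arrays. Pearson r between a scanner file and its column, over the 1615 probes, was at least 0.99991 for HFD samples and 0.580 to 0.589 for the scanner files labelled chow. Of 12 hepatocyte marker genes, 12 were well above background on all 3 HFD arrays, and 6, albumin (Alb) among them, were so on none of the 4 arrays labelled chow. The comparison of diets therefore rests on the table, and levels outside it are given for HFD livers only. At 1615 of its 1615 probes, or 100%, the groups did not overlap, so the table was selected on this comparison and gives no independent evidence. All 3 HFD arrays shared a scan day, and since it is unknown when the chow values of the table were scanned, diet and scan day cannot be told apart.

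Of the 9 genes, 2 were in the table, Vnn1 and Abcd2, and both passed as higher in HFD livers. Across the array 325 of 32451 genes passed as higher, or 1.0%, and 263, or 0.810%, passed as lower. The table lists 4.59% of the array's genes, and of the genes it lists 21.8% passed as higher and 17.7% as lower. The test was a linear model in limma with variances moderated toward those of the HFD scanner arrays, and a gene passed at an adjusted p under 0.05 (Benjamini-Hochberg over all 32451 genes). No diet difference can be given for Acot1, Acot2, Acot3, Cyp4a10, Cyp4a14, Ehhadh and Pdk4, which the table does not list.

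Vnn1, on chromosome 10, encodes vanin-1, an enzyme anchored on the outer cell surface that splits pantetheine into pantothenic acid, the vitamin from which coenzyme A is made, and cysteamine. Its deposited log2 values were 13.04, 13.04 and 13.08 in HFD livers, against 10.56, 12.08, 11.24 and 10.87 in chow livers. All 3 HFD livers lay together at the top, 0.96 or more above the highest chow liver, while the chow livers were scattered. Groups that do not overlap are found at every probe of the table. Vnn1 averaged 13.05 ± 0.023 (SD, n = 3) in HFD livers and 11.19 ± 0.66 (SD, n = 4) in chow livers. It rose in HFD livers by 1.87 on the log2 scale (SE 0.33), or 3.64-fold, with an adjusted p of 0.0483 in limma. In bulk liver a larger number of cells that make a transcript and more transcript per cell cannot be told apart.

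The spread of Vnn1 differed between the diets. Its SD among HFD livers was at the 1.41 percentile of the 1488 table genes, and its SD among chow livers at the 96.8 percentile. The highest HFD liver exceeded the lowest by 1.03-fold, and the highest chow liver exceeded the lowest by 2.87-fold. This difference in spread was not tested. The call for Vnn1 held without chow replicate 2, its highest chow value, at a log2 difference of 2.16 (adjusted p = 0.0296 in limma). It was lost when any other sample was left out, where the adjusted p in limma lay between 0.103 and 0.181.

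Abcd2, on chromosome 15, encodes a transporter of the peroxisomal membrane that imports very long-chain and polyunsaturated fatty acids as their coenzyme A esters. Its deposited log2 values were 6.93, 6.79 and 5.70 in HFD livers, against 4.70, 3.86, 3.44 and 4.32 in chow livers. HFD replicates 1 and 2 were close to each other, and HFD replicate 3 was lower than both. The groups did not overlap, as at every probe of the table. The lowest value of a probe well above background was 4.93 on HFD replicate 1, 4.16 on replicate 2 and 3.72 on replicate 3, and the highest of these stands in as the detection limit for chow. All 4 chow values lay under it, so Abcd2 was at least 2.92-fold higher in HFD livers. It averaged 6.47 ± 0.67 (SD, n = 3) in HFD livers and a measured 4.08 ± 0.55 (SD, n = 4) in chow livers. The limma fit on the values as deposited gave a log2 difference of 2.39 (SE 0.39) and an adjusted p of 0.0395.

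The call for Abcd2 also changed with the samples included. Without HFD replicate 3 the bound was at least 3.81-fold, and the call held at a log2 difference of 2.78 (adjusted p = 0.0307 in limma). When any other single sample was left out the call was lost, with adjusted p values in limma between 0.0777 and 0.158. Without HFD replicate 1 the detection limit was that of HFD replicate 2, which 2 of the 4 chow values were under, and the ratio against chow values raised to it was 3.76-fold. All values of the table under the detection limit of 4.93, in both diets, were also raised to it before the fit. Neither gene then passed, with an adjusted p in limma of 0.0510 for Vnn1 and 0.0518 for Abcd2. No value of Vnn1 was under the limit, and its unadjusted p in limma stayed at 0.000785, so only its adjustment changed.

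**Figure D1:**
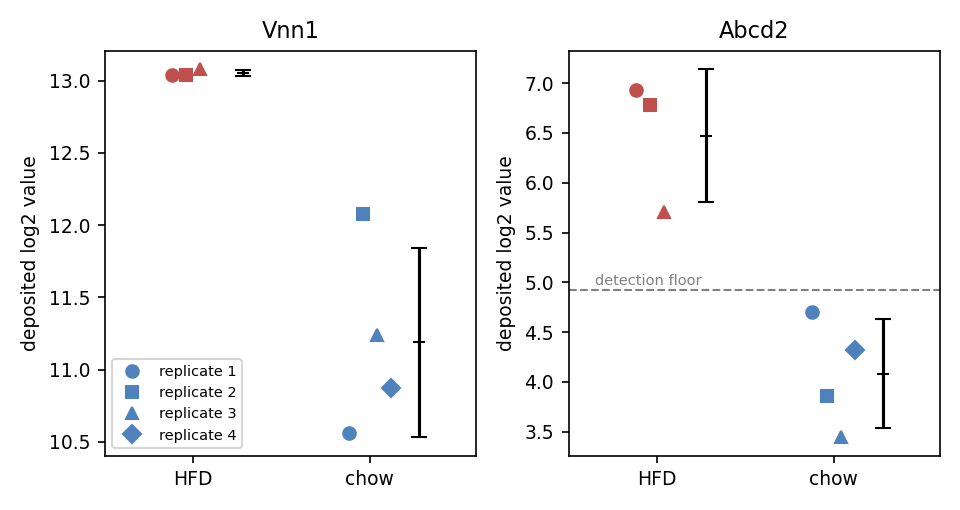
Deposited log2 values of Vnn1 and Abcd2 in the 3 HFD livers (left in each panel) and the 4 chow livers (right), with marker shape giving the replicate number and bars the mean ± SD. The HFD values of Vnn1 lie between 13.04 and 13.08 above 4 scattered chow values, and the chow values of Abcd2 all lie under the dashed detection limit of 4.93.

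The genes whose deviations from the group means ran most like those of each of these 2 genes, over the 7 columns, are given as a description. For Vnn1 they were Acsm3, a mitochondrial acyl-CoA synthetase for medium-chain fatty acids (r = 0.966, log2 difference 1.06, HFD minus chow), the histone gene H3c13 (r = 0.961, log2 difference -1.08) and Sulf2, a heparan sulfate sulfatase (r = 0.961, log2 difference 2.34). For Abcd2 they were Mgmt, a DNA repair enzyme (r = 0.981, log2 difference 0.71), Corin, a membrane serine protease (r = 0.964, log2 difference 2.94) and Mas1, a G protein-coupled receptor (r = 0.955, log2 difference 2.17). The columns share arrays and scaling. All 4 chow values of Abcd2 lay under the detection limit, which was taken from HFD replicate 1. Thus 4 of the 7 deviations behind each of its r values come from values under that limit. The same holds for the 4 chow values of Corin and for its log2 difference.

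All 9 genes were well above background on all 3 HFD arrays, as were 17612 genes, or 54.3% of the array. HFD levels are given below as the log2 processed signal minus the 75th percentile of that array, so a value above 0 is brighter than that percentile. Levels of different probes are not set against each other, since probes differ in how brightly they report.

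The microsomal enzymes Cyp4a10 and Cyp4a14 hydroxylate fatty acids at the omega end, the start of their conversion to dicarboxylic acids, and their genes are neighbours on chromosome 4. Cyp4a14 had levels of 5.42, 7.10 and 4.79 in HFD replicates 1, 2 and 3, with raw processed signals of 38999, 97270 and 21484. The brightest HFD liver thus exceeded the dimmest by 4.97-fold. Cyp4a10 was read by 3 probes, and its brightest probe had levels of 5.11, 6.59 and 5.36. HFD replicate 2 was the highest for both genes, and the other 2 livers lay close together for Cyp4a10. The other 2 Cyp4a10 probes had the same order of livers, with HFD replicate 2 above replicate 1 by 1.36 to 1.48 and above replicate 3 by 1.05 to 1.23 on the log2 scale over the 3 probes.

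The Acot genes encode thioesterases that release free fatty acids from their coenzyme A esters, in the cytosol for Acot1, in mitochondria for Acot2 and in peroxisomes for Acot3. The 3 genes lie on chromosome 12 in the order Acot2, Acot1, Acot4 and Acot3. Acot1 had levels of 2.47, 3.96 and 2.54 in HFD replicates 1, 2 and 3, so that replicate 2 stood apart from an otherwise close pair, by up to 2.81-fold. Acot2 had levels of -1.79, -1.98 and -3.14, with HFD replicate 3 the lowest and a range of 2.55-fold. Acot3 had the widest spread of the 9 genes, with levels of 0.29, 1.40 and -1.60 at its brighter probe and -2.18, -1.03 and -4.37 at the other. Both Acot3 probes put HFD replicate 2 at the top and replicate 3 at the bottom, 7.99-fold and 10.1-fold apart.

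Ehhadh, on chromosome 16, encodes the bifunctional enzyme that carries out the hydratase and dehydrogenase steps of peroxisomal beta-oxidation. Its levels were 4.27, 4.99 and 3.94 in HFD replicates 1, 2 and 3, again with replicate 2 the highest and replicate 3 the lowest, 2.07-fold apart. Pdk4, on chromosome 6, encodes a kinase that shuts off the pyruvate dehydrogenase complex and so spares glucose when fat is burned. Its levels were 0.26, -0.042 and -0.39, with HFD replicate 1 the highest and a range of 1.56-fold. On this scale the Vnn1 probe had levels of 3.33, 3.42 and 3.48, which lay close together, and the Abcd2 probe had levels of -2.59, -2.77 and -3.77, with HFD replicate 3 the lowest as in the table.

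**Figure D2:**
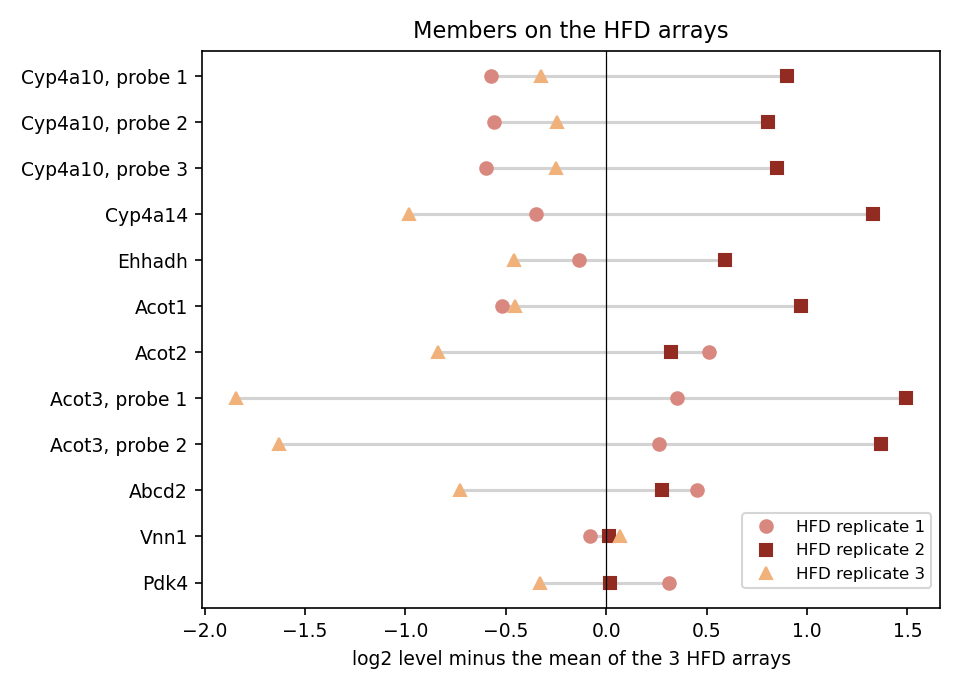
Deviation of each HFD array from the mean of the 3 HFD arrays (log2 level, horizontal axis) for the 12 probes of the 9 genes, with marker shape and shade giving the HFD replicate. HFD replicate 2 lies to the right for Cyp4a10, Cyp4a14, Ehhadh, Acot1 and Acot3, HFD replicate 3 lies to the left for Cyp4a14, Ehhadh, Acot2, Acot3, Abcd2 and Pdk4, and the Vnn1 points nearly coincide.

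Most of these genes varied more between the 3 HFD livers than the typical gene did. The median SD over the 3 arrays was 0.73 for the 9 genes and 0.175 for all 17612 genes well above background. The SD was above the 90th percentile of all these genes for 7 of the 9 and above the 95th percentile for 6 of the 9, with Pdk4 at the 77.0 percentile and Vnn1 at the 15.8 percentile as the remaining 2 under the 90th. Acot3, at an SD of 1.52, and Cyp4a14, at 1.19, were at the 99.8 and 99.6 percentiles. These values describe 3 livers and were not tested, and single livers carry much of the spread. Without HFD replicate 2 the median SD of the 9 genes was 0.448, against 0.165 for all genes, and 3 of the 9 were above the 90th percentile (Abcd2, Acot2 and Acot3). The SD of Acot1 was then 0.047, that of Cyp4a10 0.18, that of Cyp4a14 0.45 and that of Ehhadh 0.23. Without HFD replicate 3, 5 of the 9 were above it (Acot1, Acot3, Cyp4a10, Cyp4a14 and Ehhadh), and the SD was 0.12 for Abcd2 and 0.13 for Acot2. Without HFD replicate 1, 7 of the 9 were above it.

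HFD replicate 2 was above HFD replicate 3 for 8 of the 9 genes, Vnn1 being the exception, while this held for 47.5% of all genes well above background. The median difference, replicate 2 minus replicate 3, was 1.16 for the 9 genes and -0.017 for all genes. HFD replicate 3 was the lowest for 6 of 9 genes, against 29.1% of all genes, and HFD replicate 2 the highest for 5 of 9, against 29.3%. HFD replicate 2 was the lowest for 0 of the 9, against 27.8% of all genes. The Acot and Cyp4a genes belong to families of closely similar sequence, and how far a probe of one also reads another was not tested.

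**Figure D3:**
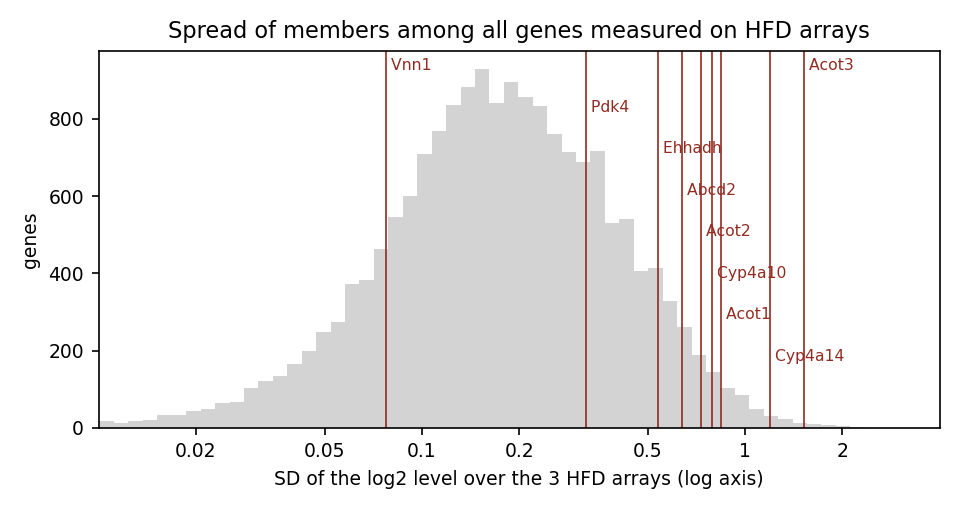
Histogram of the SD of the log2 level over the 3 HFD arrays for the 17612 genes well above background (log axis; vertical axis, number of genes), with a line at the SD of each of the 9 genes. Vnn1, at 0.077, lies left of the peak, Pdk4, at 0.32, lies right of it, and the other 7 lie in the upper tail.

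The promoters of Acot2, Acot1 and Acot3, the chromosome 12 neighbours, and of Ehhadh are shown because these genes varied strongly among HFD livers and were matched in RefSeq, which held promoters of 5 of the 9 genes (the fifth is Pdk4). Each is the stretch of 250 bases before the start site, from RefSeq on build GRCm38.p6, written in the direction of the gene. PPAR alpha with RXR is known to bind a direct repeat of AGGTCA with 1 base of any kind between the copies. Capitals mark the window closest to that repeat on either strand. Where windows tied, the first was taken, with the gene's own strand before the opposite.
Acot2, chr12:83987611-83987860, plus strand: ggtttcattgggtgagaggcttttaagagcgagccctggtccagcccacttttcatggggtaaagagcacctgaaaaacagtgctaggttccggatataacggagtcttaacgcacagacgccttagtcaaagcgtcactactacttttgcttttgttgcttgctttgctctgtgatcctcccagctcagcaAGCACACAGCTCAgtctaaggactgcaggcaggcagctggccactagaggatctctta
Acot1, chr12:84009252-84009501, plus strand: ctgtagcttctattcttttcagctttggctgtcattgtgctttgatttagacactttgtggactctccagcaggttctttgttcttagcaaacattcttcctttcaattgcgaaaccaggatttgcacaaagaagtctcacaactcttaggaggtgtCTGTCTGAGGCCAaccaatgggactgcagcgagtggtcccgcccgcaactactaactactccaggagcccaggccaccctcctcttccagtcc
Acot3, chr12:84051894-84052143, plus strand: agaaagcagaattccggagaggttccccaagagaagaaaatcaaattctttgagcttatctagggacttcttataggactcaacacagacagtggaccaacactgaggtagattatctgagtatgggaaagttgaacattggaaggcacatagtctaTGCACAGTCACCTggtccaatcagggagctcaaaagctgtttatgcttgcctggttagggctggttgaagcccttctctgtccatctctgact
Ehhadh, chr16:21787835-21788084, minus strand: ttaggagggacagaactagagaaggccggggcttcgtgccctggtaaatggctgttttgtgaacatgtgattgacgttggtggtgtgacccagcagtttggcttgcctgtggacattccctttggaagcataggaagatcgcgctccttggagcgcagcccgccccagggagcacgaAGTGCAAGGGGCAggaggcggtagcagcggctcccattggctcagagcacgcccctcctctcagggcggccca

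The closest window had 3 mismatches in Acot2, starting at base -58 from the start site. It had 4 mismatches in Acot1 at -93, in Acot3 at -93 on the opposite strand, in Ehhadh at -73 and in Pdk4 at -156. Other windows of the same promoter can have as few mismatches, as is so in Pdk4. Among 32851 promoters of the same length, 21.3% held a window with at most 3 mismatches and 74.5% one with at most 4, so matches of this quality are common. The single copy AGGTCA, on either strand, was in none of the 5 promoters (0 of 5) and in 14.0% of all. This says only that these letters are not in these windows.

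The receptor and its partner were even across HFD livers. Ppara, the receptor's own gene, had levels of 5.72, 5.88 and 5.67 in HFD replicates 1, 2 and 3, and Rxra, its RXR partner, -0.55, -0.57 and -0.42. Their SDs were 0.11 and 0.083. Lpin1, which encodes a coactivator of PPAR alpha that is also a phosphatidate phosphatase, was added after its values were seen. It had levels of 1.17, 2.53 and 0.79, with HFD replicate 2 the highest and replicate 3 the lowest. Med1, which encodes another coactivator, ran otherwise, with levels of 2.89, 3.66 and 4.77 at its brightest probe and HFD replicate 3 the highest. The order seen for Lpin1 held for 4 of the 14 listed genes for the receptor, its partners and coregulators, Ppara among them, against 11.0% of all genes. HFD replicate 3 was the lowest for 4 of the 14, against 29.1% of all genes. Neither Ppara, Rxra nor Lpin1 is in the table. Among 14 listed genes for the receptor, its partners and coregulators, 1 was in the table, Med1, by another of its probes, at a log2 difference of -0.70 (adjusted p = 0.0665 in limma), and 0 of 14 passed.

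Of the 29 other known targets of PPAR alpha on the array, 16 were lowest in HFD replicate 3, against 29.1% of all genes. Cpt1a, the gate of carnitine-dependent entry into mitochondria, had levels of 4.85, 4.99 and 4.79 in HFD replicates 1, 2 and 3, a narrow range with replicate 2 the highest. Fgf21, a fasting hormone of liver, had levels of 1.67, 0.65 and 0.39. Angptl4, a secreted inhibitor of lipoprotein lipase, had levels of 5.74, 6.12 and 5.78, and Plin2, a lipid droplet coat protein, 7.47, 7.14 and 7.41. HFD replicate 1 was thus the highest for Fgf21 and Plin2, and HFD replicate 2 for Angptl4, while the lowest liver was replicate 3 for Fgf21, replicate 1 for Angptl4 and replicate 2 for Plin2.

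The closest relatives of the Cyp4a and Acot genes are given next, chosen after their values were seen. Cyp4a31 had levels of 4.64, 6.02 and 4.96 in HFD replicates 1, 2 and 3, and Cyp4a32 had 2.74, 4.09 and 2.87. Cyp4a12a, whose product is the main omega-hydroxylase of arachidonic acid in male mice, had 2.92, 3.77 and 4.38. The first 2 share the Cyp4a10 order, whereas Cyp4a12a was highest in HFD replicate 3. Acot4, the gene between Acot1 and Acot3, had levels of 1.14, 1.52 and 0.35, and Acot5 had -1.59, -0.31 and -2.08, both highest in HFD replicate 2 and lowest in replicate 3. Over all 124 listed pathway genes outside the 9 that were well above background, 29 had that order, against 11.0% of all genes, and the median SD was 0.192.

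Of 129 other listed genes of fat oxidation and PPAR alpha action, 127 were on the array, 18 were in the table and 11 passed as higher in HFD livers, while 0 passed as lower. At an unadjusted p under 0.05 every gene of the table passes, 801 as higher and 687 as lower. The 11 are 8.66% of the 127, beside 1.0% of all genes. These shares are no test of the lists, which were chosen with earlier results of these data known. On the 3 HFD arrays, 124 of the 127 were well above background, against 54.3% of all genes. Without chow replicate 1, or without HFD replicate 1, the array with the high negative control signal, 0 genes of the array passed in limma, these 11 included. The median log2 difference of the 18 was 0.81, against 0.44 for all table genes, of which 53.8% were higher in HFD livers.

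Ketone body synthesis was the most fully listed step, with 3 of 7 genes in the table and all 3 passing as higher. Acat1, the thiolase that opens the pathway, had log2 values of 13.99, 14.00 and 13.82 in HFD livers, against 13.03, 13.13, 13.19 and 13.13 in chow livers. The groups did not overlap, as at every probe of the table, and Acat1 rose by 0.82 (SE 0.095, adjusted p = 0.0239 in limma). Bdh1, which makes beta-hydroxybutyrate, rose by 0.87 (adjusted p = 0.0384 in limma).

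Of 13 genes for the pyruvate dehydrogenase complex, its kinases and phosphatases and pyruvate import, 4 were in the table and 4 passed as higher. Pdk1, a kinase of the same family as Pdk4, had log2 values of 10.89, 11.05 and 10.69 in HFD livers, against 9.81, 10.01, 9.82 and 10.16 in chow livers, a rise of 0.93 (SE 0.14, adjusted p = 0.0319 in limma). The other 3 were not inhibitors of the complex but parts of it or its supply. They were Mpc1, a subunit of the mitochondrial pyruvate carrier (0.80, adjusted p = 0.0492), Pdha1, a subunit of the dehydrogenase (0.78, adjusted p = 0.0401), and Dlat, the acetyltransferase (0.64, adjusted p = 0.0457).

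Of 29 other known PPAR alpha targets on the array, 5 were in the table and 3 passed as higher, all 3 genes of fat uptake, fat storage or peroxisomes. Cidec, which enlarges lipid droplets, had log2 values of 14.95, 14.42 and 14.22 in HFD livers, against 10.86, 10.57, 12.26 and 10.64 in chow livers. It rose by 3.45 (SE 0.43, adjusted p = 0.0253 in limma), the largest difference of the listed pathway genes, cell type markers not counted. Cd36, a fatty acid uptake receptor, rose by 2.49 (SE 0.34, adjusted p = 0.0284), and Tmem135, a protein of peroxisomes and mitochondria, by 0.62 (adjusted p = 0.0440). Cidec and Cd36 are also targets of other nuclear receptors, PPAR gamma among them.

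Beta-oxidation itself gave no call. Of 19 peroxisomal genes 0 were in the table, and of 22 mitochondrial and carnitine shuttle genes 4 were listed and 0 passed. Those 4 were Decr1, a reductase for unsaturated fatty acids (log2 difference 0.79, adjusted p = 0.0542 in limma), Eci1, an isomerase (0.65, adjusted p = 0.0634), Hadh, a dehydrogenase for short chains (0.89, adjusted p = 0.0674), and Cpt1b, the muscle form of the entry enzyme (1.08, adjusted p = 0.0806). Of 12 omega-oxidation and Cyp4 genes, only Aldh3a2, a fatty aldehyde dehydrogenase, was listed, with log2 values of 13.71, 13.56 and 12.72 in HFD livers, against 11.19, 12.23, 11.77 and 11.16 in chow livers (log2 difference 1.74, SE 0.34, adjusted p = 0.0566 in limma). Of 13 other thioesterase genes 1 was listed, Acot13, which rose by 0.87 (adjusted p = 0.030). Of the ABC transporters related to Abcd2, 0 of 3 were listed.

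**Figure D4:**
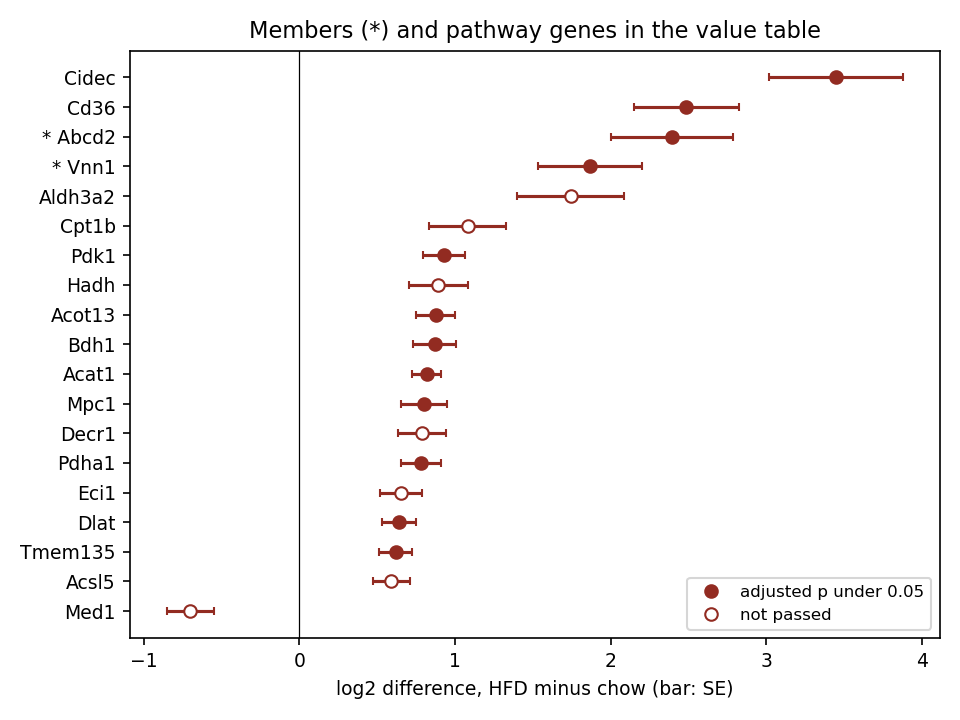
Log2 difference, HFD minus chow, with its SE, for Vnn1 and Abcd2 (asterisks) and 17 of the 18 other listed genes that the value table holds. Filled points passed at an adjusted p under 0.05, from Cidec at 3.45 down to Tmem135 at 0.62, and Med1, at -0.70, is the only point left of 0.

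Of the 17 pathway genes that were higher in HFD, HFD replicate 3 was the lowest HFD liver for 14, against 62.8% of the 801 higher table genes. Chow replicate 2 was the highest chow liver for 8 of the 17, against 34.6%, and chow replicate 1 the lowest for 10, against 37.0%. Vnn1 and Abcd2 each shared only a part of these orders, Vnn1 those of the chow livers and Abcd2 that of the HFD livers. HFD replicate 3 was the highest HFD liver for Vnn1 and the lowest for Abcd2. In chow livers Vnn1 was highest in replicate 2 and lowest in replicate 1, and Abcd2 was highest in replicate 1 and lowest in replicate 3.

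Among markers of other cell types, only macrophage markers passed in the comparison of diets, while markers of several types differed among HFD livers. Of 11 macrophage markers on the array, 3 were in the table and 3 passed as higher in HFD livers (Itgam, Ccr2 and Gpnmb, the last with all 4 chow values under the detection limit), and of 12 hepatocyte markers 2 were listed, Serpina1a, which fell by 0.52 (adjusted p = 0.0457 in limma), and Cps1, at -1.36 (adjusted p = 0.0531). Of 8 stellate cell markers, 2 were listed, Col3a1 at a log2 difference of 1.61 (adjusted p = 0.0542 in limma) and Dcn at 0.64 (adjusted p = 0.0682). Listed were 0 of 6 endothelial, 0 of 5 cholangiocyte, 0 of 6 lymphocyte and 0 of 7 adipocyte markers. Among HFD livers the log2 summed level of the macrophage list was 6.86, 5.85 and 5.88 in replicates 1, 2 and 3, that of the hepatocyte list 11.47, 12.01 and 11.96, and that of the 5 cholangiocyte markers 3.18, 2.09 and 1.29. These sums add probes of unlike brightness, so the brightest probes carry them. The cholangiocyte sum mostly follows Spp1, at 3.07, 1.90 and 1.04, while the other cholangiocyte markers all had levels under 0. HFD replicate 3 was the lowest liver for 6 of the 9 genes. It was also the lowest for 5 of 5 cholangiocyte, 7 of 11 macrophage, 6 of 8 stellate cell and 4 of 6 endothelial markers. The counts were 2 of 5 lymphocyte, 1 of 3 adipocyte and 0 of 12 hepatocyte markers. All counts are of markers well above background on the 3 HFD arrays, where replicate 3 was lowest for 29.1% of all genes. The summed macrophage level was highest in HFD replicate 1. The adipocyte markers Adipoq, Plin1, Lep and Retn were not well above background on all 3 HFD arrays, and 0 of 5 muscle and 0 of 5 kidney markers were. The part of other cell types in the results for the 9 genes was not tested.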

How the data were processed

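Liver RNA labelled with Cy3 from 0.5 microgram was hybridised with 1 array per sample, per the labels' protocols. The deposited scanner files hold spot intensity values, with the processed signal background-subtracted per the file headers, which name Feature Extraction 10.7.3.1 (version 9.1 per the submitters' processing notes). A further table by the authors holds log2 values of 1615 probes, and how these were normalized and selected is not given in the sources used here. The HFD columns rise smoothly with the scanner signal, which gives their scale and direction. For the chow columns, the scale was not set against scanner values, since none matched.

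The 9 genes and all lists were chosen with earlier results of these data known. RefSeq accessions gave a symbol to 27228 of 39429 probes (assembly GRCm38.p6, used for names and promoters), and 12201 had none. Spots of a probe were averaged after controls and outlier-flagged spots were removed. Where a table gene had several probes, the brightest on average was fitted with limma 3.58.1 in R 4.3.3, with variances moderated toward a prior of 0.0363 with 2.14 degrees of freedom from 19493 genes that 2 or more HFD arrays measured well above background. In the adjustment over 32451 genes, those not in the table had a p of 1. HFD levels are log2 processed signals minus the 75th percentile of the array, for the probe of a gene with the highest mean unless probes are given singly. Named are all 9 genes, up to 4 passing genes of each list by fold change or else the one with the smallest p, 8 genes of PPAR alpha action whatever their result (some listed genes are not reported here), and the 3 genes most like Vnn1 and Abcd2. Other listed genes that the table holds, and Lpin1 and relatives on HFD arrays, were added after their values were seen. A gene whose chow values all lay under the highest HFD detection limit is given as a bound against that limit. For normexp the median signal stood in for the mean signal, which the files do not hold as a column. The replicate numbers were not taken to pair samples. Precision is limited by the number of arrays.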

Additional observations from a re-analysis of the deposited data

Results flagged for a closer look

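Among 33 table genes examined, 2 had 1 chow liver apart from the other 3, relative to the range of the group. Chance gives such a value in about 1 of 20 groups, so 2 among 33 genes is not unusual. Serpina1a, a hepatocyte marker, had chow values of 18.47, 18.38, 18.47 and 18.47, so that chow replicate 2 made up the whole range of the group (ratio of its gap to that range 1). That range was small, at 1.06-fold, and the other chow values were equal as printed. Gpnmb, a macrophage marker, had chow values of 2.31, 2.27, 3.45 and 2.15, with chow replicate 3 apart from the rest (ratio 0.873), all of them under the detection limit of 4.93. Neither is a PPAR alpha target of fat oxidation, and no chow value of Vnn1 or Abcd2 stood apart in this way.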

How the results depend on the processing

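The calls for Vnn1 and Abcd2 lay close to the threshold. Their direction is fixed by the selection of the table and says nothing of stability. With the table's own prior 552 genes passed as higher and 474 as lower, and with adjustment over the table alone 801 and 687. With no moderation of variances 6 were higher and 1 lower, 0 of the 9 genes passed, and Vnn1 (1.87, adjusted p = 0.156) and Abcd2 (2.39, adjusted p = 0.132) were lost in limma. With a replicate block, 0 and 0 genes passed in limma (801 and 687 at an unadjusted p under 0.05), 0 of the 9 among them, with log2 differences of 1.76 for Vnn1 and 2.47 for Abcd2 (adjusted p = 0.275 and 0.222). Samples of the same number correlated at -0.10, 0.13 and 0.0064 in their deviations, and samples of different numbers at -0.15 to 0.14. Taken over probes selected on the diets, these values cannot show whether samples were paired. With values raised to the detection limit 0 of the 9 genes passed, and the log2 differences were 1.87 for Vnn1 and 1.55 for Abcd2. Leaving out 1 sample at a time gave 0 to 242 genes higher and 0 to 208 lower (801 and 687 at an unadjusted p under 0.05 in each), 0 to 1 of the 9 genes, and log2 differences of 1.66 to 2.16 for Vnn1 and 2.16 to 2.78 for Abcd2, in fits with fewer samples. Leaving out either chow replicate 1 or HFD replicate 1 gave 0 genes in both directions. The mean of the probes of a gene and a filter on low values changed no call of the 9 genes.

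On HFD arrays, the count of genes lowest in HFD replicate 3 was 6 to 7 and of those highest in replicate 2 was 5 to 6 under every scaling, including 1 on the table's scale chosen after seeing the data. The median SD of the 9 genes lay between 0.514, with normexp background correction, and 0.75. With normexp the SD of Abcd2, a dim probe with processed signals of 57.0 to 151, was 0.30 in place of 0.64, that of Acot2 0.45 in place of 0.73, and 6 of the 9 genes were above the 90th and 5 above the 95th percentile of all genes, in place of 7 and 6. All 9 genes stayed above background under both other detection rules.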

Other observations

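The scanner files labelled chow, which do not match the table's chow columns, were used in no comparison. Of the 9 genes, 7 were well above background on all 4 of those arrays and 2, Abcd2 and Cyp4a14, on none. Of the 12 hepatocyte markers, 5 were well above background on all 4 and 6 on none (Alb, Apoa1, Tdo2, Cps1, Apoh and Ahsg). Their 75th percentiles of the processed signal were 1586.3, 1699.6, 1670.7 and 2070.3.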
